A study of Mus musculus with 2 samples.

Results

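Border-associated macrophages are the resident macrophages of the meninges, the perivascular spaces and the choroid plexus, and here they were followed in single cells from the optic nerve of mice with an optic glioma. Members were chosen on raw unique molecular identifiers (UMIs), each of which marks 1 captured RNA molecule. Barcodes were kept from 500 UMIs and 200 genes upwards when mitochondrial genes gave no more than 20% of the UMIs. A member had at least 5 UMIs summed over Mrc1, Pf4, Cbr2 and F13a1, at least 1 of Csf1r, at most 1 of P2ry12 and Tmem119 together, at most 1 of Cd3d, Cd3e and Cd3g together, and none of Xcr1 or Clec9a. The rule found 209 members among 19834 kept cells, of which 185 of 15726 came from the vancomycin library and 24 of 4108 from the control library.

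Both groups were Nf1-OPG mice, Nf1flox/neo; GFAP-Cre animals that carry a neomycin cassette in 1 germline Nf1 allele and lose the floxed allele in the neuroglial progenitors in which GFAP-Cre is active, so that every other cell, macrophages included, is Nf1 heterozygous by design in both groups. Mice received vancomycin or, in the control group, PBS from 6 to 12 weeks of age, and each library pooled 10 mice at 12 weeks. The labels give optic nerve as the tissue of both, while their protocol also describes the dura, the outer meningeal layer, and the library title names the optic nerve only for the control. Single-cell RNA was counted with the 10x Genomics 5′ chemistry, by Cell Ranger 7.2.0 in the vancomycin library and 6.0.1 in the control library, per the file headers. With 1 library a group, no difference between groups has a replicate check. Treatment, pool, capture, software version and any difference in the tissue taken cannot be told apart. Intervals given below are exact 95% intervals and cover counting error only.

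In the brain's borders these macrophages take up debris, lipoproteins and circulating proteins through scavenger receptors, and they meet T cells through MHC class II. They carry the mannose receptor gene Mrc1 and the chemokine gene Pf4, and differ from microglia, the macrophages of the nervous tissue itself, in lacking P2ry12, Tmem119 and the transcription factor Sall1. Some express the hyaluronan receptor gene Lyve1, with the phosphatidylserine receptor gene Timd4 and the folate receptor gene Folr2, and others are high in MHC class II and the monocyte receptor gene Ccr2. MAF and PU.1 are transcription factors that act in macrophages. The promoters of 3 scavenger or uptake receptors on which the results turn are shown for that reason, as the 250 bases before the gene start, with matches of the MAF half-site TGCTGA and the PU.1 core GAGGAA, searched on both strands, in capitals:
Stab1: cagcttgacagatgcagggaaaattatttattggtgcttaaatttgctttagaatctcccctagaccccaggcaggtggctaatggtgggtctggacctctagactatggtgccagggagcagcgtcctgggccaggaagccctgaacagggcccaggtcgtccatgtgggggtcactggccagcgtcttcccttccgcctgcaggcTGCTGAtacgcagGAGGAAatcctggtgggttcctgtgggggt
Timd4: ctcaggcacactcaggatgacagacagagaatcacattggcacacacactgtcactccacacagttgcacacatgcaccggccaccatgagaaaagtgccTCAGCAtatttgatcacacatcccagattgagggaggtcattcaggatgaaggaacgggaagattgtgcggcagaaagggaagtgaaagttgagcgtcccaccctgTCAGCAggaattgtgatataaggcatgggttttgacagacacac
Folr2: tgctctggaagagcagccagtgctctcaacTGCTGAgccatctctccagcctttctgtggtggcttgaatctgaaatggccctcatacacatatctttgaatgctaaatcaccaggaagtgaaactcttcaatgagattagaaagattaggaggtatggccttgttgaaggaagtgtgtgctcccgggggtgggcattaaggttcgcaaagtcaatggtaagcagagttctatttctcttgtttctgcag
They come from RefSeq, build GRCm38.p6, and are written 5′ to 3′ along each gene's strand. Stab1, a clearance receptor, lies on the minus strand and its window is chr14:31168642-31168891, with a half-site starting 43 bases and a PU.1 core starting 30 bases before the start. Timd4 lies on the plus strand with its window at chr11:46810549-46810798, and both half-sites, at 150 and 44 bases before the start, are on the opposite strand and so read TCAGCA. Folr2 lies on the minus strand with its window at chr7:101857191-101857440 and has 1 half-site, 220 bases before the start. Of 25 genes listed for border-associated macrophages beyond the rule, 19 had a promoter in the table. The half-site stood in 5 of these 19 (26.3%) and in 16.1% of all 32851 promoters of the same length, and the PU.1 core in 6 (31.6%) and 23.3%. The 19 count 1 start a gene, while the 32851 include further starts of some genes. The 3 promoters shown all hold a half-site, whereas that of Cd163, a scavenger receptor gene also named below, holds neither match. A match is a run of letters and not evidence of binding.

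Members made up 1.18% of kept vancomycin cells (interval 1.01 to 1.36) and 0.584% of kept control cells (0.375 to 0.868). Per 100 microglia there were 17.7 (15.1 to 20.7) in the vancomycin library and 2.91 (1.86 to 4.36) in the control library. Of kept cells with a Ptprc UMI, the pan-leukocyte gene, members with Ptprc were 1.62% and 0.755%. The vancomycin share was the higher one by each of these denominators, and the libraries also differed in kept cells and in median UMIs per kept cell, 6970.0 and 4870.5. Members themselves had a median of 6405 UMIs (510 to 27778) in the vancomycin library and 9340.5 (1724 to 22796) in the control library. Of barcode sequences, 100 occurred in both libraries, and none was a member in both.

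The members' marker sum, on which they were chosen, had a median of 11 UMIs (5 to 105) in the vancomycin library and 8 (5 to 25) in the control library. Just inside the threshold, with 5 UMIs, were 21 vancomycin and 2 control members, and 27 and 2 cells that met every other part of the rule stood just outside, with 4. All 4 markers were found together in 59 of 185 vancomycin members and in 1 of 24 control members. A single marker carried 32 and 9 members. Mrc1 had a UMI in 91.4% of vancomycin and 79.2% of control members, F13a1, the coagulation factor XIII subunit, in 79.5% and 62.5%, Pf4 in 67.6% and 33.3%, and Cbr2, a carbonyl reductase, in 43.8% and 20.8%. These 4 were used to choose the cells and are given as a description.

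Markers outside the rule went partly against the label in the control library. Ms4a7, a membrane protein gene of border macrophages, had a UMI in 69 of 185 vancomycin members (37.3%, interval 30.3 to 44.7) and 7 of 24 control members (29.2%, 12.6 to 51.1), against 2.87% and 1.46% of microglia. None of Ms4a7, Lyve1, Folr2 and Cd163 was found in 47 of 185 vancomycin members (25.4%) but in 15 of 24 control members (62.5%). At least 3 UMIs over the monocyte markers Ly6c2, Plac8, Chil3 and Ccr2 were found in 30 vancomycin members (16.2%, interval 11.2 to 22.3) and 9 control members (37.5%, 18.8 to 59.4). The mark does not make each of these a monocyte. In 1 of the 30, 758 Ly6c2 UMIs stood beside 776 of Jchain and 802 of Igkc, genes of antibody-producing cells. At least 3 over the dendritic cell markers Flt3, Zbtb46, Cd209a and Ccr7 were found in 18 (9.73%) and 7 (29.2%). The control members are therefore called members of the rule below, not a uniform macrophage type. Megakaryocytes also express Pf4, and 9 of their markers summed to 8 vancomycin and 7 control UMIs, or 5.57 and 32.7 CPM. Of the control UMIs, 71.4% came from 1 cell. In control members 7 of the 9 markers were at 0, Itga2b and Gp9 among them.

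**Figure D1:**
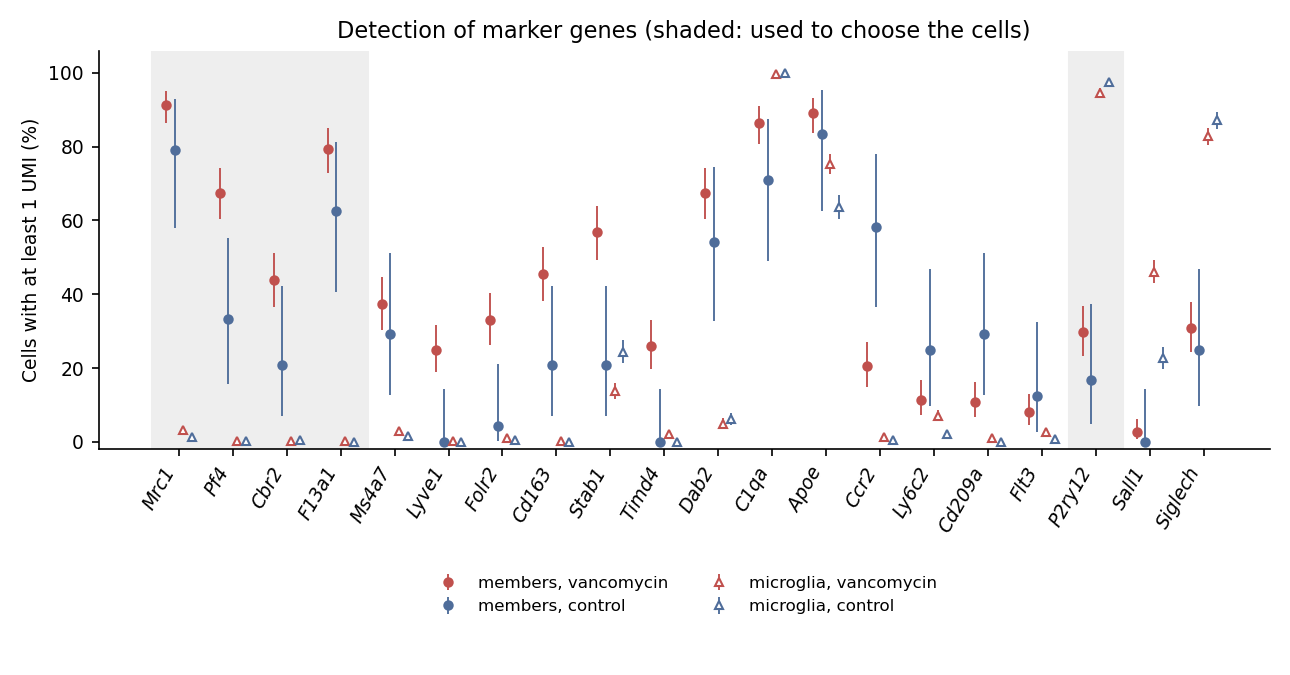
Percent of cells with at least 1 UMI (y axis) for 20 genes (x axis), in members (filled circles) and microglia (open triangles) of the vancomycin (red) and control (blue) libraries, with exact 95% binomial intervals. Mrc1 is found in 91.4% and 79.2% of members and in 3.16% and 1.33% of microglia, and Ccr2 in 20.5% of vancomycin and 58.3% of control members.

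Against microglia of the same library, members were higher in 5 of 5 measured monocyte markers and lower in 9 of 10 measured microglia markers, in both libraries. The monocyte values rested on few cells. Over the 10 listed monocyte markers, 1 cell held 40.2% and 20 cells held 85.4% of the vancomycin members' UMIs, and 1 cell held 33.0% of the control members' UMIs. Of 8133 genes with at least 50 UMIs in each library, 141 (1.73%) were at least 2-fold higher in members and 236 (2.9%) at least 2-fold lower in both, on the scale of log2 CPM (UMIs of a gene scaled to the same total in each class) with 10 CPM added and with intervals that leave out equality. The cells of both classes were chosen by marker genes, so these counts describe the classes. Lyz2, the lysozyme gene, stood at 7897 CPM in vancomycin members and 642 in microglia, and at 12719 and 559 CPM in the control library. Its log2 differences were 3.60 and 4.48. Pltp, the phospholipid transfer protein gene, differed by 3.97 in the vancomycin and 3.30 in the control library. Dab2, an endocytic adaptor gene, differed by 3.94 and 3.31, and was found in 67.6% and 54.2% of members against 4.89% and 6.07% of microglia. Cxcl2, a neutrophil-attracting chemokine gene, stood at 990.0 CPM in vancomycin members and 15.7 in microglia, and at 1206 and 118 CPM in the control library. Only 65 vancomycin and 11 control members held a Cxcl2 UMI. Mgl2, a galactose-binding lectin gene, stood at 343 and 608 CPM in members, against 16.7 and 0.497 in microglia. Mgl2 was also high in dendritic cells, at 680.0 and 651 CPM. The other genes with the largest differences were Ifitm2, Crip1, Ahnak, Adgre5, Klra2, Wfdc17, Clec12a, S100a4, Plbd1 and Lgals1, with log2 differences from 3.08 for Lgals1 to 5.63 for Ifitm2 over both libraries. Members holding a UMI ranged from 38 vancomycin and 11 control members for S100a4 to 167 and 23 for Ifitm2. The part of monocyte- or dendritic-marked members in these differences was not tested for each gene.

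Lower in members were Sparc, a matrix-binding protein gene of microglia, at 61.3 CPM against 1285 in the vancomycin and 32.7 against 2069.6 in the control library, and Lag3, at 6.96 against 376 and 18.7 against 422. Il1a, an interleukin 1 gene, stood at 48.0 against 796 CPM and 257 against 2363. Cxcl13, a B-cell chemokine gene, differed by -3.69 and -5.88. Serpine2, Cd34, Nav3, Adgrg1, Capn3 and Olfml3 completed the 10 lowest, with log2 differences between -2.96 and -5.02 over both libraries. Of the border macrophage list, 7 of 15 measured genes were higher than in microglia and 0 lower. These were Ms4a7, Clec4n, Dab2, Ms4a6c, Ms4a6b, Tgfbi and Clec12a. Of the microglia list, 0 genes were higher, and of 19 lipid and lysosome genes 0 were higher and 4 lower. Sall1 had a UMI in 5 of 185 and 0 of 24 members, against 46.1% and 22.7% of microglia. Without the members that carried 3 or more monocyte or dendritic cell UMIs, the counts over all genes were 82 higher and 134 lower, in a comparison chosen after the data were seen.

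**Figure D2:**
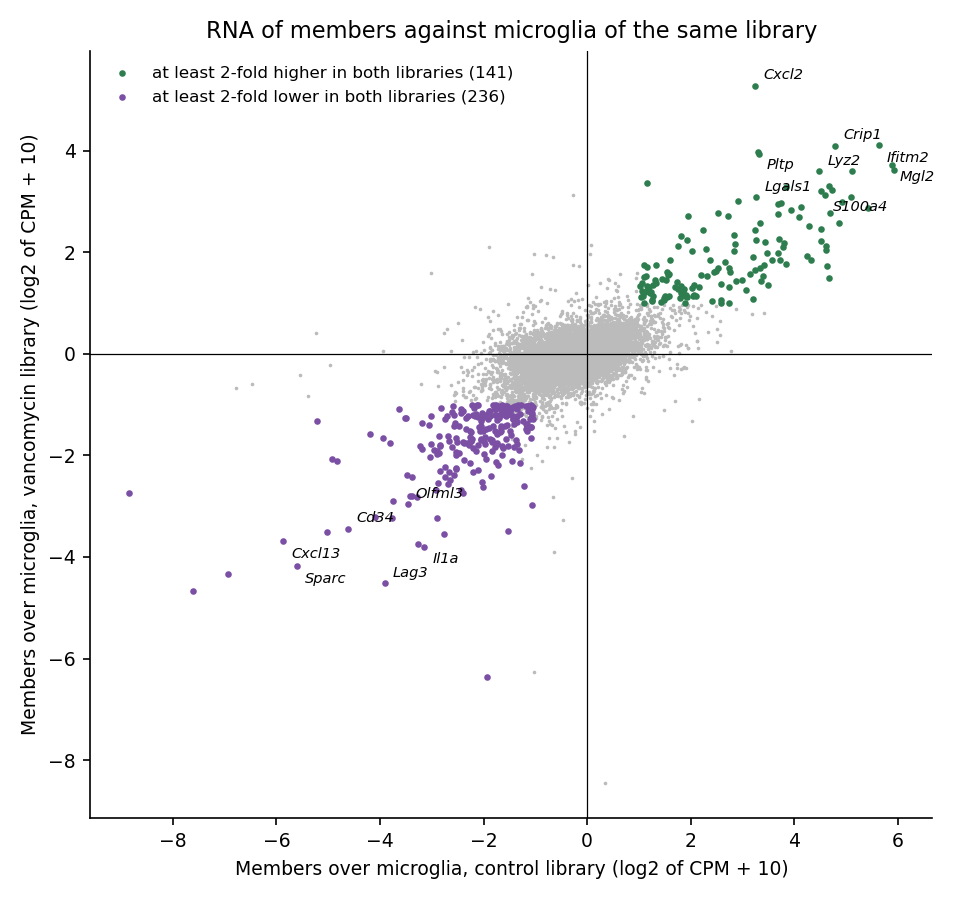
Log2 difference in CPM + 10 between members and microglia of the control library (x axis) and of the vancomycin library (y axis), 1 point a gene, with genes at least 2-fold higher (green, 141) or lower (purple, 236) in both libraries. Ifitm2 and Mgl2 lie far to the upper right, and Sparc and Lag3 to the lower left. The unlabelled points below -6 on either axis are immunoglobulin genes.

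The vancomycin members differed among themselves in Lyve1, MHC class II and Ccr2 RNA. Of the 36 vancomycin members with 3 or more monocyte or dendritic cell UMIs, Ccr2 and Cd209a among the markers counted, 1 had Lyve1 and 35 did not. Lyve1 was found in 46 of 185 vancomycin members (24.9%, interval 18.8 to 31.7), in 10 of them as a single UMI, and in 0 of 24 control members, for which the exact upper limit is 14.2% of cells with a UMI. After each cell was thinned to 2000 UMIs, Lyve1 was in 26 of 166 vancomycin members (15.7%, 10.5 to 22.1) and 0 of 23 control members (exact upper limit 14.8%). These limits concern cells with a UMI at this depth, not cells that express the gene. Lyve1 had a UMI in 1 of 1044 vancomycin microglia, 1 of 4102 vancomycin T cells and 1 of 1789 control T cells, given as a background whose source was not tested. Lyve1 also marks lymphatic endothelium, whose 10 listed vessel markers summed to 48.0 CPM in vancomycin members and 28.1 in control members, with at most 10 UMIs in a cell. MHC class II was counted over H2-Aa, H2-Ab1, H2-Eb1 and Cd74, and at least 5 UMIs after thinning were found in 150 of 166 vancomycin members (90.4%, 84.8 to 94.4) and 18 of 23 control members (78.3%, 56.3 to 92.5). The unthinned shares were 90.8% and 83.3%. T cells, which should lack these genes, passed the same mark in 7.11% and 1.71% after thinning. Few cells lay near the mark, with 5 vancomycin members and 1 control member at 3 to 7 UMIs, and the median was 120 and 128 UMIs. Of the 26 thinned Lyve1 cells, 21 also passed the MHC class II mark.

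Among vancomycin members, the 46 cells with Lyve1 and the 139 without differed in other genes of the same receptors' group. The split uses 1 gene of these same cells, so its values are a description. Fcna, a ficolin gene of the lectin complement pathway, stood at 288 CPM in cells with Lyve1 and 7.32 CPM in cells without, a ratio of 39.3 (interval 19.2 to 93.6), and was found in 21 of 46 and 6 of 139 cells. Timd4 stood at 448 and 43.0 CPM (10.4-fold, interval 7.47 to 14.8). Folr2 stood at 428 and 78.7 CPM (5.43, 4.13 to 7.17), and Cd163, the haemoglobin scavenger receptor gene, at 302.5 and 75.1 CPM (4.03, 2.99 to 5.45). Stab1 was 2.38 times as high (1.90 to 2.98), and Maf 1.44 times (1.16 to 1.78). The rule's own genes were also higher in the Lyve1 cells, F13a1 by a ratio of 2.07, Pf4 by 2.14, and Cbr2 by 2.17, and Mrc1 stood at 890.1 and 592 CPM. H2-Ab1 went the other way, at 4401 CPM with Lyve1 and 7783 without (0.565, 0.535 to 0.597), and Cd74 stood at 0.581 of the level without. Ccr2 was at 8.73 CPM, from 3 UMIs, against 124 CPM, a ratio of 0.0706 (0.0144 to 0.211). Median depth was 5730.5 UMIs with Lyve1 and 6580 without.

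Some members also carried RNA of other cell types. At least 20 UMIs of the myelin or of the B and plasma cell list were found in 37 vancomycin members, whose median depth was 11637 UMIs against 5507.5 in the rest, and in 2 control members. Of the 37, 8 had a doublet score above 0.2 and 14 had Lyve1. Without the 37, in a comparison chosen after the data were seen, the ratios of cells with to cells without Lyve1 were 52.3 for Fcna, 13.6 for Timd4, 5.52 for Folr2, 6.64 for Cd163 and 0.675 for H2-Ab1. For Ccr2 the ratio was 0.146. Without the 36 monocyte- or dendritic-marked members, likewise a later choice, 45 cells with Lyve1 and 104 without remained. The ratios were then 23.4 for Fcna (interval 11.4 to 55.8), 6.91 for Timd4, 3.53 for Folr2, 2.78 for Cd163 and 0.593 for H2-Ab1 (0.560 to 0.628). Stab1 was at 1.49 (1.18 to 1.88), and the intervals of Maf (0.711 to 1.10) and Mrc1 (0.959 to 1.29) then included equality.

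**Figure D3:**
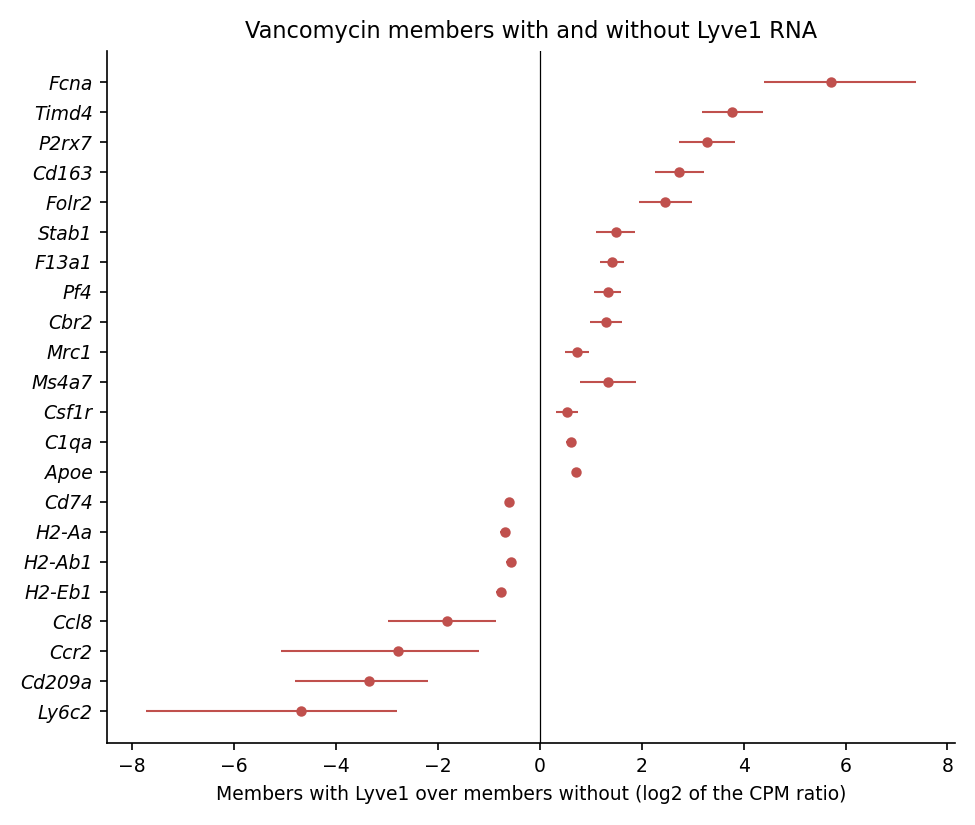
Log2 ratio of summed CPM in the vancomycin members with Lyve1 over those without (x axis) for 22 genes (y axis), without the members that held 20 or more UMIs of the myelin or of the B and plasma cell list, with exact 95% Poisson intervals as bars. Fcna, Timd4, P2rx7, Cd163 and Folr2 lie above a ratio of 5, and H2-Ab1, Ccr2 and Cd209a below 1.

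Between the libraries, the sums over members differed in 931 of 4612 measured genes. At least 2-fold higher in the vancomycin library were 624 genes (13.5%), and at least 2-fold lower were 307 (6.66%), with a median log2 ratio over all measured genes of 0.11. These are differences between 2 libraries, with no test. The 24 control members held 213856 UMIs and the 185 vancomycin members 1436303, so 1 cell can set a control value. The members' mix also differed, with the shares of monocyte- and dendritic-marked cells given above, and its part in each difference was not tested. Values without these cells, and without those that carried myelin or B cell RNA, were added after the data were seen, and they leave 149 and 11 members, and 148 and 22. Without the first, 364 of 3339 measured genes were higher and 304 lower. Without the second, 278 of 3258 were higher and 212 lower.

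Lyve1, Timd4, Folr2, Stab1 and Cd163 were higher in the vancomycin members, while the scavenger receptor list as a whole had a median like that of all genes. Of 13 measured scavenger and endocytosis genes, 5 were higher and 0 lower. Their median log2 ratio was 0.10, beside 0.11 over all genes, and -0.09 without the monocyte- and dendritic-marked members. It was -0.19 over the 12 of them still measured there. Of the border macrophage list, 8 of 23 measured genes were higher and 2 lower, against 13.5% and 6.66% of all measured genes. The list's median log2 ratio was 0.67, and 0.55 after the median ratio of microglia, dendritic cells and T cells was subtracted from each gene. It was 0.25 without the monocyte- and dendritic-marked members. Log2 ratios of genes at 0 in the control, such as Lyve1 and Timd4, depend on the 10 CPM added, and both genes stand above the median at their bounds too. Lyve1 stood at 208 CPM in the vancomycin library and at 0 in the control library, which makes it at least 14.8-fold higher against a control floor of 3 UMIs over all members. Timd4 stood at 139.9 and 0 CPM, at least 9.98-fold higher, with 48 of 185 members holding a UMI, and 23.4% of its UMIs came from 1 cell. Folr2 was at 162 CPM in 61 members and 14.0 CPM from 3 UMIs of a single control member, a log2 ratio of 2.84 (interval of the plain ratio 3.91 to 56.5). Stab1 was at 228 and 37.4 CPM, a log2 ratio of 2.33 (interval of the plain ratio 3.05 to 14.2), in 105 and 5 members. Cd163 was at 129.5 and 28.1 CPM, a log2 ratio of 1.87, in 84 and 5 members. P2rx7, a channel gated by extracellular ATP, had a log2 ratio of 2.12. Fcna, of the scavenger list, was at 74.5 and 0 CPM, at least 5.31-fold higher. In microglia the same ratio was 0.01 for Lyve1, 0.01 for Cd163, 0.08 for Folr2 and 0.37 for Timd4. Without the monocyte- and dendritic-marked members log2 ratios were 4.87 for Lyve1, 4.37 for Timd4, 2.12 for Folr2, 1.33 for Stab1 and 0.94 for Cd163. Of the border macrophage list 6 of 21 genes were then higher and 2 lower, beside 364 and 304 of all 3339 genes.

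Other genes of the list differed less. Dab2 stood at 246 and 201 CPM, a log2 ratio of 0.28, and its interval (0.889 to 1.72) includes equality. Apoe, the main lipoprotein of the nervous system, was at 13669 and 7337 CPM, a log2 ratio of 0.90, and 26.3% of the control UMIs came from 1 cell. Clec4n, a lectin receptor for fungal sugars also called dectin 2, was lower, at 33.4 and 243 CPM, a log2 ratio of -2.54. Clec12a was the other lower gene of the list, at -1.34. Of the 20 core macrophage genes 1 was higher and 2 lower, beside 13.5% and 6.66% of all measured genes. Maf was higher, at 286 and 56.1 CPM (2.16), while Itgam (-1.16) and Cd14 (-1.69) were lower. Without the monocyte- and dendritic-marked members 2 of the 20 core genes were higher and 6 lower, beside 364 and 304 of all 3339 genes then measured. Lyz2 had a log2 ratio of -0.69, and 1.21 without the monocyte- and dendritic-marked members. C1qa, a complement subunit gene, was at 4251 and 2338 CPM (0.86), in 160 and 17 members.

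Antigen presentation by MHC class II did not pass the 2-fold mark in any of 12 measured genes. The list's median log2 ratio was -0.12, and -1.16 after the other 3 cell classes were subtracted. Over the same 12 genes the median was 0.40 without the monocyte- and dendritic-marked members. Over the 10 genes still measured there it was 0.21, and 1 of them was higher. With members thinned to 2000 UMIs the median of the 12 was 0.35, so its sign depends on these choices. Cd74 was at 28658 CPM in the vancomycin and 36679 CPM in the control members, a log2 ratio of -0.36, while its ratio in microglia was 1.37 and in T cells 2.50. H2-Aa was at 9433 and 11166 CPM (-0.24), against 1.68 in microglia. The difference between members and microglia was not tested.

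Il1b, Il1rn, Tlr2, Cd14 and Clec4e were lower in the vancomycin members. Of 16 measured cytokine and NF-kappaB genes, 6 were lower and 0 higher (median log2 ratio -0.78), and of 11 receptors for bacterial products 5 were lower and 0 higher (median -0.97), beside 6.66% of all genes lower and 13.5% higher. After the other classes were subtracted, the medians were -0.38 and -0.24. Without the monocyte- and dendritic-marked members, 9 of 15 and 5 of 9 were lower and 0 higher. Of all 3339 genes then measured, 304 were lower and 364 higher. Il1b, the interleukin 1 beta gene, was at 1166 CPM in 92 vancomycin members and 4227 CPM in 22 control members, a log2 ratio of -1.85. Il1rn, the interleukin 1 receptor antagonist gene, was at 13.9 and 224 CPM (-3.29), from 7 and 8 members. Tlr2, a receptor for bacterial lipoproteins, was at 144 and 669 CPM, a log2 ratio of -2.14, in 90 and 21 members. Cd14, the lipopolysaccharide co-receptor gene, was at 1463 and 4751 CPM. Clec4e, a lectin for mycobacterial glycolipids, had a log2 ratio of -2.84, and -0.80 without the monocyte- and dendritic-marked members. In microglia the ratio was -0.83 for Il1b, -1.43 for Tlr2 and -2.05 for Cd14, so these were not lower in members alone.

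Chemokines went both ways, and of 17 measured 3 were higher and 6 lower (median log2 ratio -0.54), beside 13.5% and 6.66% of all genes. Without the monocyte- and dendritic-marked members 4 were higher and 9 lower, beside 364 and 304 of all 3339 genes then measured. The chemokine median was then -1.07. Higher were Cxcl13 (309.8 and 14.0 CPM, 3.73), Ccl8 (217 and 9.35 CPM, 3.55) and Ccl2 (2.73). Cxcl13 was also higher in vancomycin microglia, at 4109 CPM against 1404 in control microglia, so it was not higher in members alone. Cxcl13 and Ccl8 had 3 and 2 control UMIs, with intervals of the plain ratio of 7.51 to 108 and 6.36 to 192. They rested on few cells, since 32 vancomycin members and 1 control member held Cxcl13 and 1 cell gave 32.8% of its vancomycin UMIs, and 30 members and 1 held Ccl8. Ccl4 was lower, at 716 and 2889.8 CPM (plain ratio 0.224 to 0.274), and so were Ccl3, Ccl6, Ccl9, Ccl24 and Cxcl16. Ccr2, the receptor through which monocytes follow Ccl2, was at 96.1 CPM in 38 vancomycin members and 318 CPM in 14 control members (-1.63), and its ratio was -0.76 without the monocyte- and dendritic-marked members. Ccr2 is itself among the markers that define those members, so a smaller ratio after their removal follows from the choice.

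Immediate early genes, transcribed within minutes of a stimulus or of tissue dissociation, were higher in 5 of 18 and lower in 2, beside 13.5% and 6.66% of all genes. Without the monocyte- and dendritic-marked members 3 of 15 were higher and 1 lower, beside 364 and 304 of all 3339 genes. Egr1 was at 1835 and 299 CPM (2.58) and Jun at 1963 and 327 CPM (2.55), against 0.69 and 0.37 in microglia. Nr4a3 and Nr4a2 were the 2 lower genes. Of 11 heat shock genes 2 were higher, a share near the 13.5% of all genes, and the list's median log2 ratio turned from 0.33 to -0.20 without the monocyte- and dendritic-marked members. The 2 genes were Hspa1a at 682 and 28.1 CPM (4.18), in 98 and 4 members, and Dnajb1 (1.91), against -0.44 and -0.34 in microglia. Of 19 genes of the interferon gamma response and MHC class I, 8 were higher and 0 lower, beside 13.5% and 6.66% of all genes. Their median log2 ratio was 0.53, and 0.09 after the other classes were subtracted. Without the monocyte- and dendritic-marked members 4 of 17 were higher, beside 364 of all 3339 genes. The median was then 0.20 over the 19 genes and 0.15 over the 17 still measured. Iigp1, a GTPase gene that acts on pathogen vacuoles, was at 265 and 46.8 CPM (2.27) and its ratio in microglia was 2.28. Irgm1, of the same GTPase family, had a ratio of 2.10, and H2-D1 of -0.23. Of 11 haem and iron genes 5 were higher and 1 lower, beside 13.5% and 6.66% of all genes. Without the members that held myelin or B cell RNA 3 were higher and 1 lower, beside 278 and 212 of all 3258 genes then measured. The same counts were found without the monocyte- and dendritic-marked members, beside 364 and 304 of all 3339 genes. The median log2 ratio of the haem and iron list was 0.71 over all members, 0.27 after the first removal and 0.74 after the second. Hmox1, which breaks down haem, was at 227 and 37.4 CPM (2.32), in 107 and 6 members, against -0.86 in microglia. Ftl1, the ferritin light chain gene, was at 459.5 and 3989 CPM (-3.09), but it was as low in microglia (-3.39), dendritic cells (-3.72) and T cells (-2.83).

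The 12 highest and 12 lowest genes, among those at 100 CPM or more whose ratio also differed by at least 1 from the median of the other classes, were taken by rule from 64 higher and 90 lower candidates. Bpifa1, a secreted airway protein gene, led with 4069 CPM against 0, but 1 cell gave 99.98% of its UMIs. Grik3, a glutamate receptor gene, was in 180 of 185 vancomycin members and in 0 of 24 control members, with at least a 71.3-fold difference. Its log2 ratio was 6.24 in microglia, 5.48 in dendritic cells and 4.66 in T cells. Cdk8, a Mediator kinase gene, was in 154 vancomycin members and 1 control member (interval of the plain ratio 24.5 to 5416), and its log2 ratio of 5.47 in members stood beside 3.68, 4.94 and 3.42 in those classes. The newer Cell Ranger release counts reads in introns by default and the older does not, while the settings used are not given in the sources used here, and their part in these library-wide differences was not tested.

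Aplp1, Apod, Car2, Gpm6b, Cryab and Prnp, genes with high expression in glia or neurons, moved with the myelin RNA. All 11 myelin genes of the list were higher, beside 13.5% of all measured genes. They summed to 9869 CPM in vancomycin and 772 in control members, and 20 cells held 89.7% of the vancomycin UMIs. In T cells the same sum was 9349 and 217 CPM, and in microglia 6255 and 1016. Without the members that held 20 or more UMIs of the myelin or B cell lists, the log2 ratio of Aplp1 was 0.70 in place of 6.14, that of Apod 1.18 in place of 6.01 (from 1 control UMI) and that of Car2 0.79 in place of 5.42. Gpm6b, Cryab and Prnp were then at 2.05, 1.90 and 2.15, in place of 4.71, 4.39 and 3.99, while Lyve1 was at 4.40, Timd4 at 3.90 and Hspa1a at 4.33.

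Among the lowest, Thbs1, the matrix glycoprotein thrombospondin 1 gene, was at 55.0 and 931 CPM (-3.85), from 10 and 9 members, and stood at -1.35 without the monocyte- and dendritic-marked members. Il1rn, Clec4e and Clec4n are given above. Rcan1, a calcineurin regulator gene, was at 39.0 and 365 CPM (-2.94), with 48.7% of the control UMIs from 1 cell, and in microglia the ratio was -3.22. Gpr35, a receptor for tryptophan-derived and other metabolites, was at 14.6 CPM in 13 members and 145 CPM in 12 (-2.65). Bcl3, an NF-kappaB co-regulator gene, was at 48.7 and 309 CPM (-2.44) and was found in 42 of 185 and 21 of 24 members. Arl4c, a small GTPase gene, was found in 40 and 23 members (-2.80). Id2, an inhibitor of DNA binding, had a ratio of -2.43, Tgm2, a transglutaminase gene, of -2.40, Rab11fip1, a vesicle-traffic gene, of -2.55, and Tnip3, an inhibitor of NF-kappaB signalling, of -2.28.

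**Figure D4:**
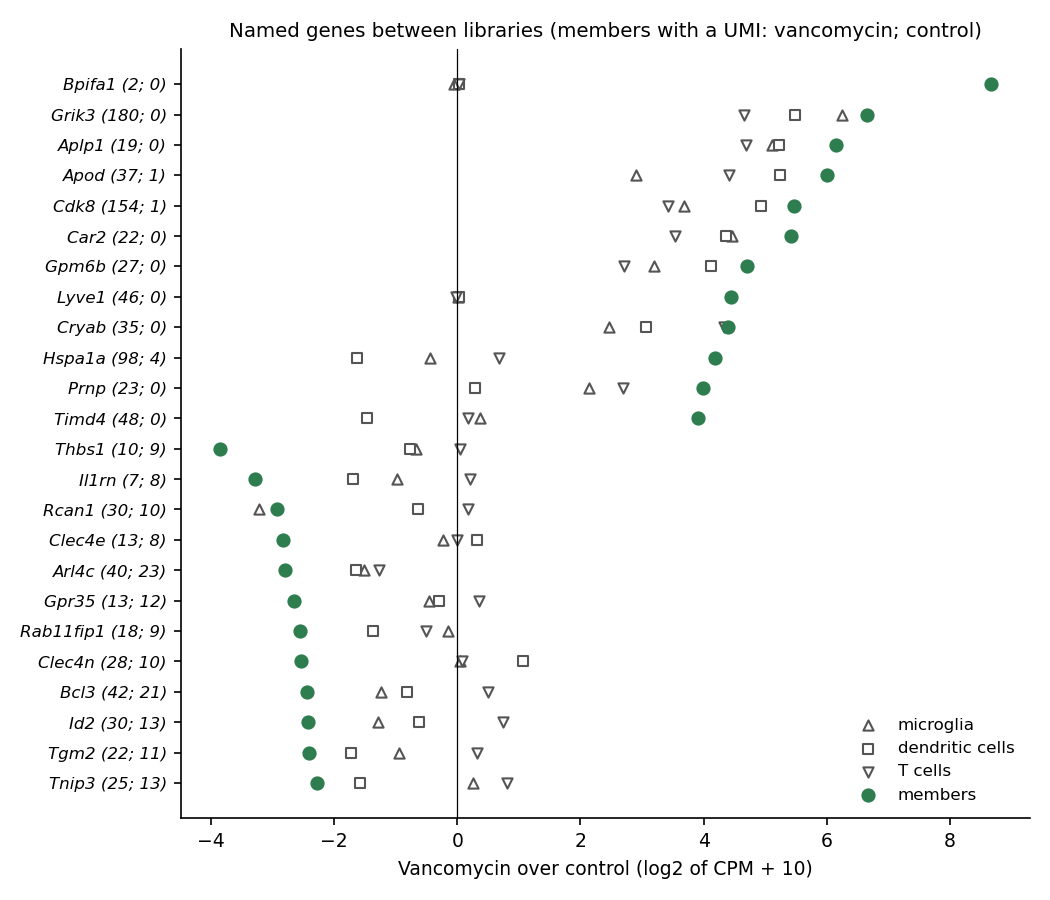
Log2 ratio of CPM + 10, vancomycin over control (x axis), for the 24 named genes (y axis, with the number of vancomycin and control members holding a UMI), in members (filled circles) and in microglia, dendritic cells and T cells (open symbols). Grik3 and Cdk8 are between 3.42 and 6.24 in the other classes and Prnp is at 0.29 in dendritic cells, while Lyve1 and Timd4 are high in members and between -1.47 and 0.37 in the other classes.

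**Figure D5:**
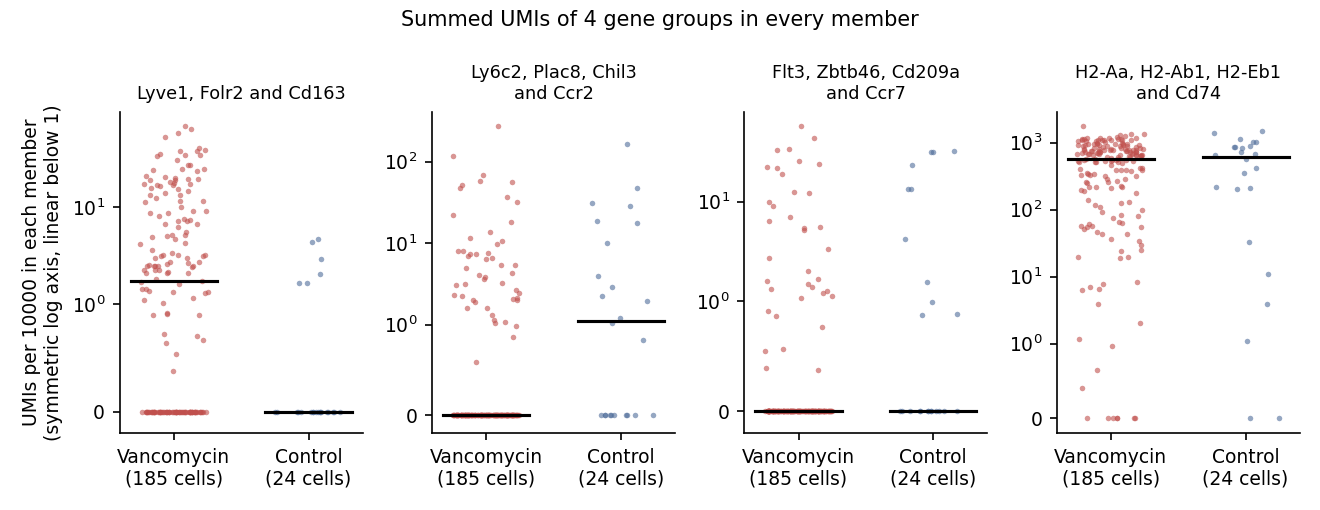
Summed UMIs scaled to the member's total (y axis, symmetric log scale) of 4 gene groups, in the 185 vancomycin members (red) and the 24 control members (blue), with the median as a bar. The control median is at 0 for Lyve1, Folr2 and Cd163 together, and the 2 libraries overlap throughout for MHC class II.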

How the data were processed

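Vancomycin and control cells were measured in 1 library each, and the deposited UMI counts were used as they stand. Cell Ranger and the mm10 build produced them, per the file headers and the submitters' processing notes, which also name Partek. The libraries held 144451114 and 25609899 UMIs over 16596 and 4272 barcodes, of which 870 and 164 were left out by the cell filter. UMIs were summed over cells of a class, scaled to CPM and compared as log2 of CPM + 10. Microglia had 3 or more UMIs of P2ry12 and Tmem119, dendritic cells 2 or more of Flt3 and Cd209a, and T cells 3 or more of the Cd3 genes. Ratios carry exact conditional Poisson intervals and shares Clopper-Pearson intervals. A gene was measured with at least 50 UMIs. Replicates were absent, so no test was made, and edgeR 4.0.16 and DESeq2 1.42.0 served only for scaling factors. Scrublet, through scanpy 1.11.5, scored doublets, but no cell was removed by it, since its own threshold marked none in the control library. Named genes were the listed macrophage genes, the 12 highest and 12 lowest between libraries, the 15 highest and 10 lowest against microglia by the smaller of both libraries' log2 differences, and the 2 most abundant and 2 most different of each list. The ranked choices left out ribosomal, mitochondrial, haemoglobin, immunoglobulin, T cell receptor and sex-linked genes, Gm and Rik models and markers of other cell types. The genes Ccl2, Ccl3, Ccl6, Ccl9, Ccl24, Cxcl16, Nr4a2 and Nr4a3 were named after their values were seen. The members and the gene lists were chosen with earlier results of these data known. The procedure was tested on simulated data. Alternatives to the settings are given in the closing section. GENCODE M21 held 99.6% of the 32285 gene identifiers.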

Additional observations from a re-analysis of the deposited data

Results flagged for a closer look

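Stab1 was at least 2-fold apart between the libraries in opposite directions in members and in microglia, with a log2 ratio of 2.33 in members and -1.09 in microglia. C3, the central complement gene, was at -1.62 in members (39.0 and 140.3 CPM) and 1.74 in microglia, but it was at 2.42 in members, the direction of microglia, without the monocyte- and dendritic-marked cells. Cd209a, a lectin gene of dendritic cells, was at -1.24 in members (247 and 599 CPM) and 1.07 in microglia, and it was at 0.26 in members without those cells. With 1 library a group, none of these differences between cell classes was tested. Cd209a was found in 20 vancomycin and 7 control members, and C3 in 27 and 7.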

How the results depend on the processing

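No paired analysis was possible because each group has 1 library. The vancomycin share of 1.18% was 0.827% with 8 or more marker UMIs, 1.64% with 3 or more and 1.62% of Ptprc cells. Of genes higher and lower between libraries (624 and 307), 226 and 158 passed with 50 CPM added, 148 and 99 with at least 200 UMIs, 112 and 107 with members thinned to 2000 UMIs, and 287 and 139 after the other classes were subtracted. With no minimum of UMIs 527 were lower, and with 8 marker UMIs 407 were higher. Without myelin- or B-cell-bearing members 278 were higher (212 lower), and without monocyte- or dendritic-marked members 364 (304 lower). Higher genes made up 67.0% of all passing genes, but 51.1% after thinning and 56.7% and 54.5% without those members. Higher and lower than microglia (141 and 236) were 61 and 76 with 50 CPM added, 51 and 125 after thinning, and 82 and 134 without monocyte- or dendritic-marked members, and 51 were higher with at least 200 UMIs. Lyve1, in 15.7% of vancomycin members thinned to 2000 UMIs, was in 23.1% of thinned members with 8 marker UMIs. Without thinning it was in 24.9% of vancomycin members. MHC class II was in 84.6% when thinned to 1000 UMIs. Of 55 genes compared between libraries, 46 passed and 4 of these turned sign in some setting. C3 was at 2.42 and Cd209a at 0.26 without monocyte- or dendritic-marked members, and Ftl1 was at 0.30 and Iigp1 at -0.0059 after the other classes were subtracted. Cd209a is among the markers that define this removal, so its turn follows from the choice of cells. The MHC class II median over the same 12 genes (-0.12) was 0.40 without monocyte- or dendritic-marked members and 0.35 after thinning. The cause of these shifts was not tested beyond the removal itself. The 24 control members set the limit, since a gene at 0 there can still be present at 3 UMIs.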
